A study of Homo sapiens with 6 samples.

Results

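The genes described here encode the chaperones, folding enzymes, degradation factors and stress sensors of the endoplasmic reticulum (ER). They are 36 genes chosen by name, out of 58735 in the deposited tables, and all 36 were found there. Their RNA was sequenced from cells of MDA-MB-231 (genotype given as WT), a line from a human breast cancer that lacks the hormone receptors and HER2 amplification. The cells had been stained with PKH26, a membrane dye that is diluted as they divide. After a chase of 12 days in serum-containing medium, the 1% of cells that kept most dye were sorted as slow-cycling cells (SCC), which the series calls dormant. Cells of moderate dye intensity, named in the sample characteristics as low in dye, were sorted as rapid-cycling cells (RCC). Each group had 3 biological replicates and no drug or genetic change, and no unstained or unsorted sample was analysed here. The series asks how expression differs between SCC and RCC, and its title names the transcription factor AP-1.

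Proteins of the secretory pathway fold in the ER lumen with the help of HSP70- and HSP90-type chaperones, lectin chaperones that hold glycoproteins, and disulfide isomerases. Proteins that fail to fold are passed back to the cytosol and degraded, a route called ER-associated degradation (ERAD). When unfolded protein builds up, the sensors ATF6, IRE1 (gene ERN1) and PERK (gene EIF2AK3) start the unfolded protein response. ATF6 and the spliced form of XBP1 switch on chaperone genes, and PERK favours translation of the factor ATF4 while slowing general translation.

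Summed counts ranged from 17655855 to 27831824 per library. VIM, a mesenchymal filament gene, was at 145 to 161 FPKM (counts scaled by gene length and library size), the receptor genes ESR1 at up to 0.0498 and PGR at up to 0.00839, while ERBB2 was at 6.88 to 10.2. Of 9 leukocyte, endothelial and fibroblast markers none exceeded 0.416 FPKM in any library. SCC replicate 1 stood apart with GC content: its median log2 deviation from the mean of all libraries was -0.23 in the decile of genes lowest in GC and 0.38 in the highest, where the other 5 libraries lay between -0.15 and 0.10. Mitochondrial transcripts took 4.56% ± 0.169 of counts in SCC and 3.89% ± 0.107 in RCC (SD, n = 3; two-sided exact permutation p = 0.1, the smallest possible with 3 against 3). Its part in the results below was not tested.

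HSPA5 and HERPUD1 rose in SCC, and none of the other tested ER genes of the group passed the threshold. Of the 36 genes 35 had enough counts to be tested. By edgeR's quasi-likelihood test, with Benjamini-Hochberg adjustment over all 15881 tested genes and a threshold of 0.05, 2 of the 35 (5.71%) were called higher and 0 lower. Over all tested genes 1.69% were called higher and 0.378% lower (2.07% in either direction). With an unadjusted p below 0.05 there were 7 of the 35 above RCC and 1 below (20.0% and 2.86%), against 11.4% and 8.27% of all tested genes. The median log2 fold change of SCC over RCC was 0.06 for the 35 genes and 0.00 for all genes, with 19 of the 35 above 0 and 16 below. In 11 of the 35 (31.4%) every SCC library was above every RCC library, and in 3 every SCC library was below, where 14.4% and 13.4% of all tested genes were so separated. Without SCC replicate 1, 3 of the 35 were called higher (DNAJB9 added) and 0 lower, beside 642 and 343 of the 16324 genes then tested. Leaving out any RCC library left 1 called, HSPA5. With an offset for GC content 4 of the 35 were called higher (DNAJB9 and DNAJB11 added) and 1 lower (MANF), and over all genes 521 were higher and 246 lower, against 268 and 60 in the fit reported. The log2 fold change of 10 of the 35, none of them called, changed sign in at least 1 of 16 alternatives. DERL2, at -0.00 in the fit reported and from -0.05 to 0.10 over the alternatives, is not counted among them.

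**Figure D1:**
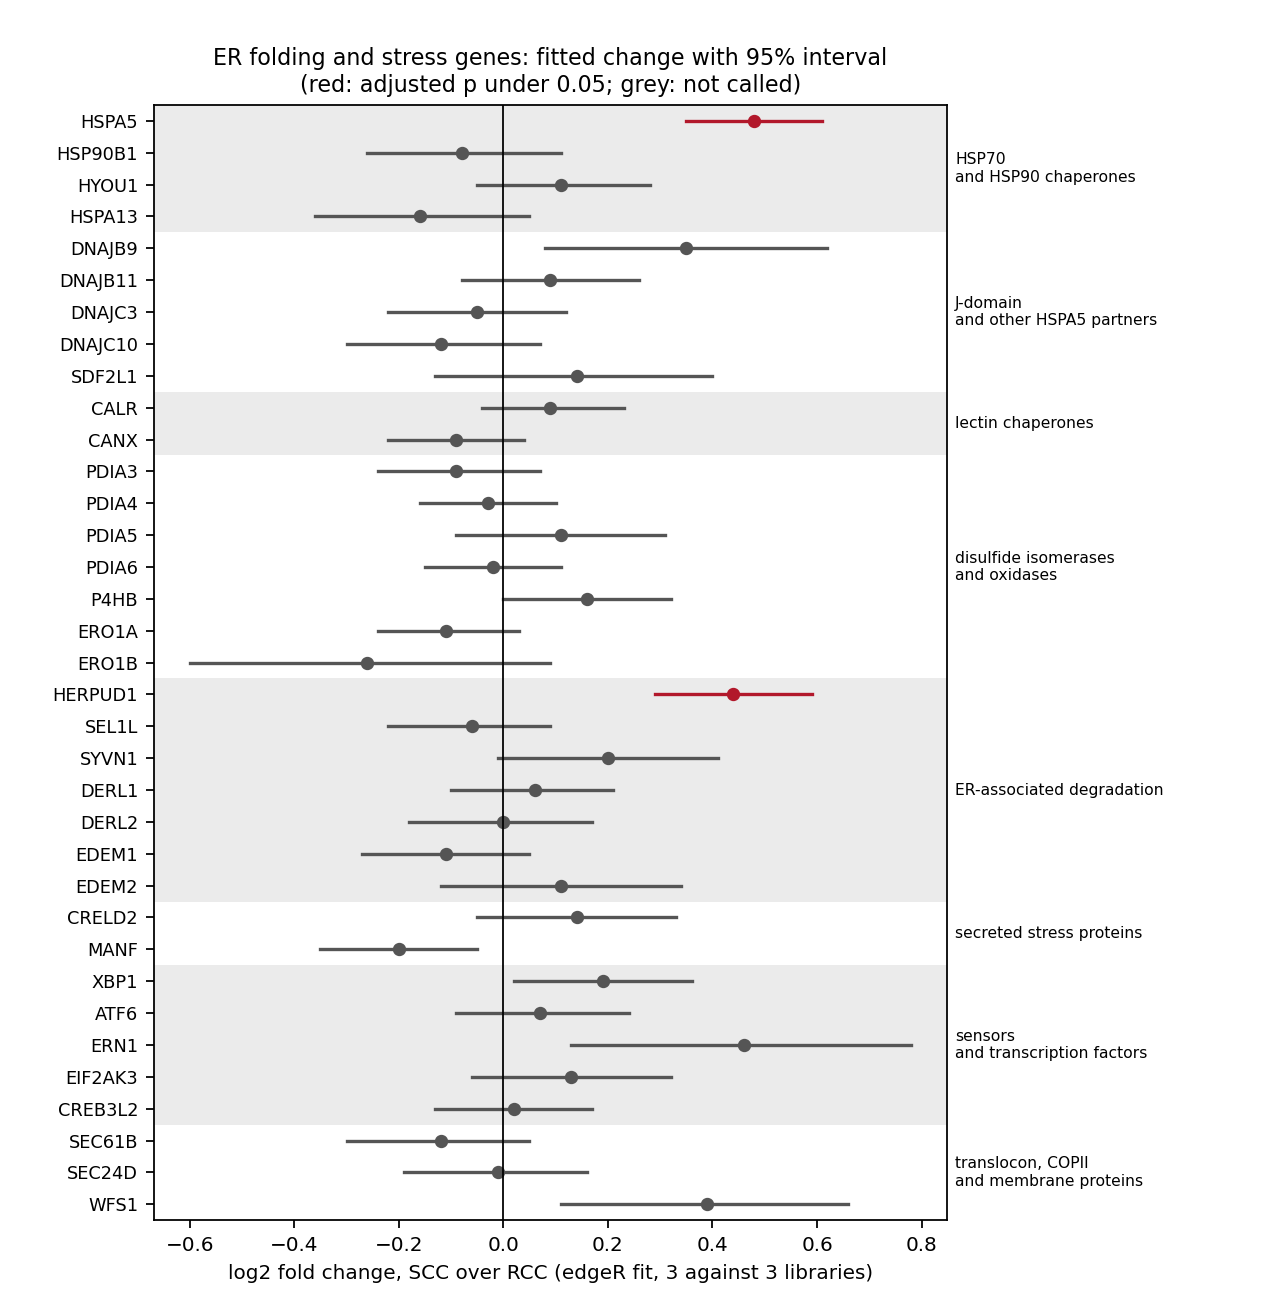
Fitted log2 fold change of SCC over RCC for the 35 tested genes, ordered by role, with 95% intervals from the edgeR fit (3 against 3 libraries). The 2 called genes, HSPA5 at 0.48 and HERPUD1 at 0.44, are red, and the remaining 33 are grey and lie between -0.26 and 0.46.

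HSPA5 (BiP; ENSG00000044574, chromosome 9, 125234853 to 125241330, GRCh38) is the HSP70 chaperone of the ER lumen, which also holds the stress sensors inactive while folding capacity suffices. It was at 1110.5, 1130.3 and 1131 CPM (counts scaled by library size only) in SCC replicates 1 to 3 and at 836, 809 and 773 CPM in RCC replicates 1 to 3. The groups did not overlap, and SCC replicate 1 lay beside the other SCC libraries. The means were 1124 ± 11.6 and 806 ± 31.4 CPM (SD, n = 3), a log2 fold change of 0.48 (1.39-fold) with a standard error of 0.0596, a 95% interval of 0.35 to 0.61 and an edgeR adjusted p of 0.00146. It stayed called without any single library. It was not called in limma on log2(FPKM + 1) without a filter on low genes, where its log2 fold change was 0.47 (adjusted p 0.113).

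The other HSP70 and HSP90 chaperones did not pass the test. HSP90B1 (GRP94), the HSP90 chaperone of the ER and after HSPA5 the most abundant of these per length, was at 668, 837 and 795 CPM in SCC and 818, 828 and 778 in RCC. SCC replicate 1 was the lowest of the 6 and the other SCC libraries lay within or just above the RCC range. Its log2 fold change was -0.08 (95% interval -0.26 to 0.11, adjusted p 0.624), and its sign changed in 1 of 16 alternatives. HYOU1, which exchanges the nucleotide of HSPA5, was at 464, 392 and 394 CPM in SCC and 392, 383 and 381 in RCC (log2 fold change 0.11, adjusted p 0.416). HSPA13, an HSP70-like protein of microsomes, was at 88.8, 114 and 111 against 115, 116 and 117 CPM, so that every SCC library was lower. The fitted value for HSPA13 was -0.16 on the log2 scale (adjusted p 0.358), but 0.01 with the GC offset and -0.05 when SCC replicate 1 was left out.

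HSPA5 was also set against 6 abundant ER chaperones and isomerases library by library. HYOU1 and PDIA4, which are also abundant, were not among them. Counts of HSPA5 per count of HSP90B1 were 1.66, 1.35 and 1.42 in SCC and 1.02, 0.976 and 0.994 in RCC. Per count of CANX they were 0.671, 0.656 and 0.648 against 0.453, 0.436 and 0.444. In both ratios the SCC libraries lay above all RCC libraries. The ratios to CALR, PDIA3, PDIA6 and P4HB were also separated between the groups, and the exact permutation p was 0.1 for each of the 6 ratios, the smallest possible, before any adjustment. These ratios were chosen after the values had been seen, and all share the HSPA5 counts, so they are not independent of each other. In SCC replicate 1 they also carry the gaps of that library from the mean of the other SCC libraries. On the log2 scale these gaps were -0.03 for HSPA5, -0.29 for HSP90B1, -0.20 for PDIA3, -0.07 for CANX and -0.01 for PDIA6. For CALR and P4HB they were 0.13 and 0.21. The 36 genes together summed to 8165, 8269 and 8319.6 CPM in SCC and 8059, 8042 and 7794 in RCC, but without HSPA5 the sums overlapped, at 7054, 7139 and 7189 against 7223, 7233 and 7021. The fitted value of HSPA5, 0.48 with a 95% interval of 0.35 to 0.61, was the highest of the 35 tested genes. It lay above the upper end of the 95% interval of 30 of the 34 others. HSPA5 was singled out after its value was seen, so this count and the sums without HSPA5 are description and no test.

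HERPUD1 (ENSG00000051108, chromosome 16, 56932048 to 56944863) encodes a membrane protein that gathers the ERAD ubiquitin ligase complex and is itself induced by ER stress. It was at 71.8, 73.6 and 71.8 CPM in SCC and 53.8, 51.9 and 54.8 in RCC. The 3 SCC libraries lay within 2 CPM of each other and well apart from RCC. The log2 fold change was 0.44 (1.35-fold; standard error 0.0686; 95% interval 0.29 to 0.59; adjusted p 0.00825). It was not called without RCC replicate 1 (0.0981), 2 (0.0858) or 3 (0.0692), fits in which 99, 99 and 103 genes in all were called higher against 268 with every library. Its log2 fold change there was 0.41 to 0.45.

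**Figure D2:**
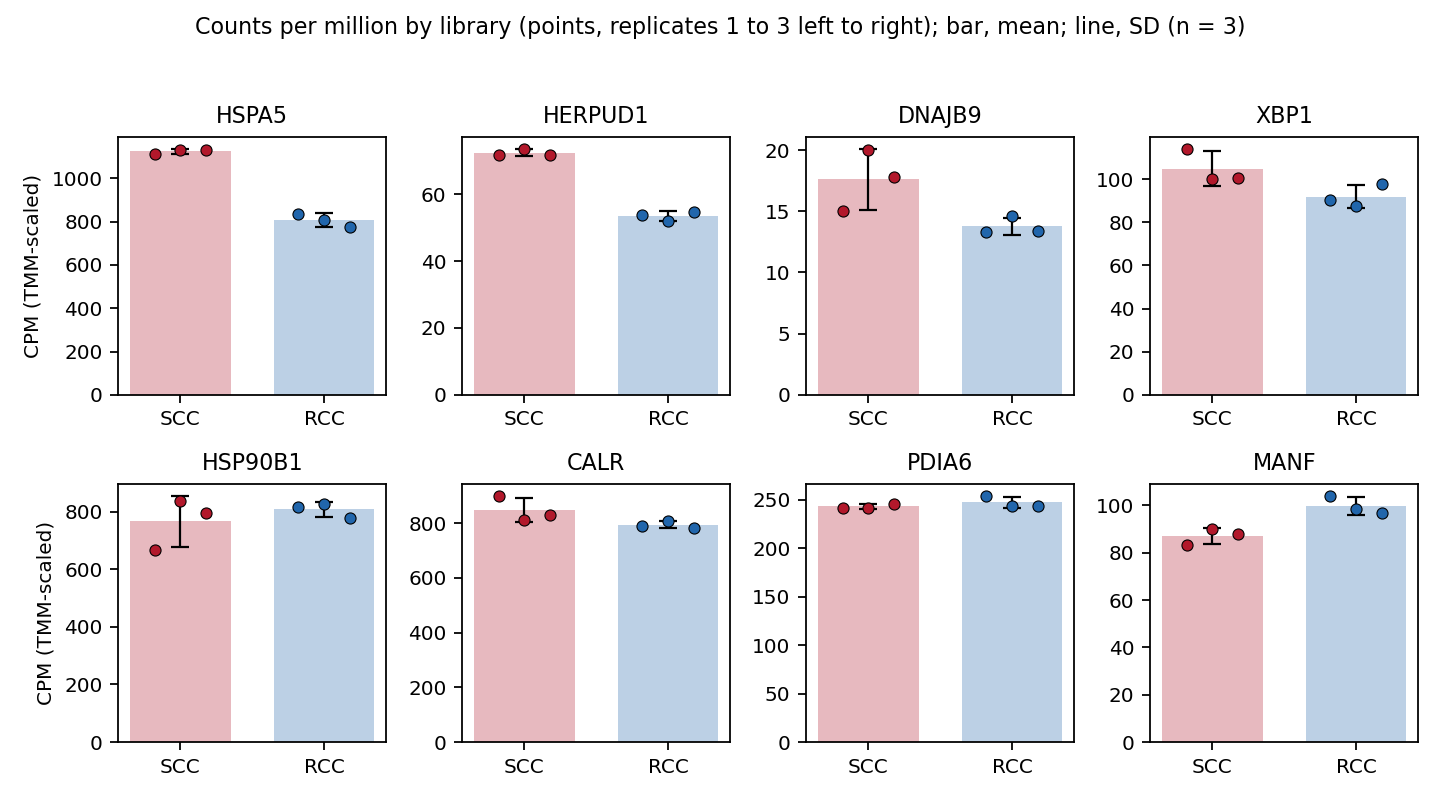
CPM (TMM-scaled) of 8 genes in each library, with points for replicates, bars for the mean and lines for the SD (n = 3). HSPA5 (SCC 1124, RCC 806) and HERPUD1 (72.4 and 53.5) are separated with little spread, whereas HSP90B1 and PDIA6 overlap and MANF is lower in all 3 SCC libraries.

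The promoters of both called genes hold a form of the ER stress response element (ERSE). NF-Y binds this site at its CCAAT part, and ATF6 or XBP1 at its CCACG part. The element is known from ER stress genes, and the group was chosen to hold such genes. A match could thus be foreseen and tests nothing. Promoter windows were taken from RefSeq (GRCh38.p14) and matched 32 of the 36 genes by symbol. Those without an entry were DERL1, DERL3, PDIA3 and SEC24D. The 250 bases before the start were searched on both strands for ERSE (CCAAT and CCACG with any 9 bases between them), ERSE-II (ATTGG and CCACG with any 1 base between them) and the core of the XBP1 element UPRE (TGACGTG). The windows of the called genes are shown because they carry the elements at the centre of this comparison, with the fixed letters of ERSE or ERSE-II in capitals. HSPA5 is chr9:125241344-125241593 on the minus strand, which ends just before the start, and its ERSE lies 66 to 48 bases before it. HERPUD1 is chr16:56931892-56932047 on the plus strand, which ends where the gene of the deposited table begins, and its ERSE-II lies 117 to 107 bases before the RefSeq start.
HSPA5: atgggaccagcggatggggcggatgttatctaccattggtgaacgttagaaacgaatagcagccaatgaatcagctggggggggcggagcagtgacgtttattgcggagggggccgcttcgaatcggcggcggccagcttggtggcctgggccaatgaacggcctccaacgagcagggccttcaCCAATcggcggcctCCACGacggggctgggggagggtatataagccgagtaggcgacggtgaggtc
HERPUD1: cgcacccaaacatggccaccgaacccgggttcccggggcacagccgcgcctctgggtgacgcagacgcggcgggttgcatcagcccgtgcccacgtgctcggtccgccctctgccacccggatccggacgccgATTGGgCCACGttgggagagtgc

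ERSE was found in 8 of the 32 windows and ERSE-II in 3 others, so 11 of the 32 genes held either. Among all 35116 RefSeq windows of this length, ERSE was in 26 (0.074%) and ERSE-II in 18 (0.0513%). Among the 10636 tested genes with a window, 16 held ERSE and 14 ERSE-II. The genes described here were chosen by name as ER folding and stress genes, so their share was not tested against the others. The letters CCAAT alone, which are part of ERSE and, on the other strand, of ERSE-II, were in 26 of the 32 genes (81.2%) and in 41.2% of tested genes. The UPRE core was found for DNAJC10 and HYOU1 (6.25% of the 32, against 2.79% of tested genes), and that of HYOU1 overlaps its farther ERSE-II. The ATF4 composite site TGATGNAA was found for HERPUD1 alone among the 32, 176 to 169 bases before the start, and in 2.39% of tested genes. The sites are listed 5′ to 3′ on the motif's own strand, with the fixed letters in capitals, to compare the spacer of each ERSE and the base between the parts of each ERSE-II.
CALR ERSE at chr19:12938384-12938402: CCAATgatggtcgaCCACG
CANX ERSE at chr5:179698778-179698796: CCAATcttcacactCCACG
CRELD2 ERSE at chr22:49918554-49918572: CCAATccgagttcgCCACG
ERO1B ERSE at chr1:236282183-236282201: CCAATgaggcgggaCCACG
HSP90B1 ERSE at chr12:103930216-103930234: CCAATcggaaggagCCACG
HSP90B1 ERSE at chr12:103930321-103930339: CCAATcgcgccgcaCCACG
HSPA5 ERSE at chr9:125241391-125241409: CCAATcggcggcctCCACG
PDIA6 ERSE at chr2:10812853-10812871: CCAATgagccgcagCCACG
XBP1 ERSE at chr22:28800603-28800621: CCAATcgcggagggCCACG
HERPUD1 ERSE-II at chr16:56932025-56932035: ATTGGgCCACG
HYOU1 ERSE-II at chr11:119057274-119057284: ATTGGaCCACG
HYOU1 ERSE-II at chr11:119057380-119057390: ATTGGaCCACG
SDF2L1 ERSE-II at chr22:21642114-21642124: ATTGGtCCACG

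Of the 11 genes with ERSE or ERSE-II, 2 were called, and of the 21 with a window and neither element 0 were. Over all tested genes 2.07% were called in either direction. These shares were not tested against each other. The 11 genes with ERSE or ERSE-II had log2 fold changes from -0.26 (ERO1B) to 0.48 (HSPA5), with a median of 0.11, 7 above 0 and 4 below. HSP90B1, with an ERSE at each of 2 positions, was at -0.08, and HYOU1, with 2 ERSE-II matches of identical sequence, at 0.11. Only exact matches were counted, so copies with changed letters were missed. The number of copies in a window, that of HSPA5 included, may be understated. The 21 genes with a window and neither element had a median of 0.02, with a range from -0.20 to 0.46. The genes with an element were also the more abundant, with a median of 51.8 FPKM against 9.86. Outside the group, 19 other tested genes held ERSE or ERSE-II, with a median log2 fold change of 0.01, and 1 of them, NAV2, was called. By the GENCODE annotation the sites of HSP90B1 and CANX lie in exons and those of CRELD2 and PDIA6 in introns of longer transcripts, and the others lie before the gene. A match describes letters in a window and does not show that a factor binds there.

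**Figure D3:**
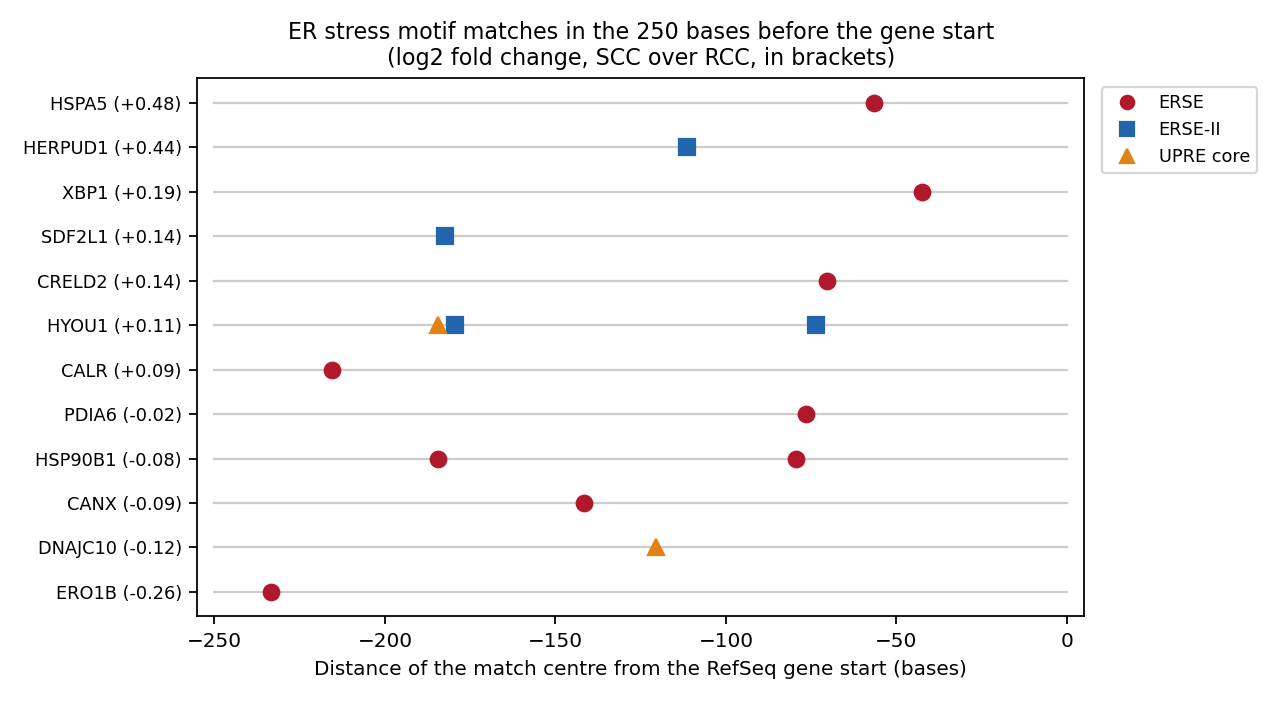
Distance in bases of each ERSE, ERSE-II and UPRE core match from the RefSeq gene start, in the 250 bases before it, for the 12 genes with a match to any of these, ordered by log2 fold change of SCC over RCC. HSPA5 and HERPUD1 stand at the top with 1 ERSE and 1 ERSE-II, and genes with the same elements reach down to ERO1B at -0.26.

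None of the partners of HSPA5 was called. DNAJB9 (ERdj4), a J-domain protein that hands substrates to HSPA5 and represses IRE1, was at 15.0, 20.0 and 17.8 CPM in SCC and 13.3, 14.6 and 13.4 in RCC. The groups did not overlap, but the lowest SCC library, replicate 1, was close to the highest RCC value. Its log2 fold change was 0.35 (95% interval 0.08 to 0.62, adjusted p 0.163). It was called without SCC replicate 1 (0.46, adjusted p 0.00726) and with an offset for GC content (0.44, 0.0137). DNAJB11 (ERdj3), which binds unfolded chains together with HSPA5, was at 65.7, 71.6 and 75.7 against 68.0, 66.5 and 65.4 CPM. Its log2 fold change of 0.09 (adjusted p 0.517) was 0.22 with the GC offset (0.0376). DNAJC3 (p58IPK), a co-chaperone and PERK inhibitor, and DNAJC10 (ERdj5), a disulfide reductase of ERAD, had log2 fold changes of -0.05 and -0.12 (adjusted p 0.714 and 0.442). SDF2L1, which helps HSPA5 hold its clients, was at 52.6, 36.5 and 42.5 against 38.0, 39.1 and 43.1 CPM, with the highest and the lowest value both in SCC. For SDF2L1 the log2 fold change was 0.14 (adjusted p 0.545), but -0.15 with the GC offset and -0.02 when SCC replicate 1 was left out.

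The lectin chaperones CALR (calreticulin, soluble) and CANX (calnexin, in the membrane) did not pass the test, and their intervals end well below the value of HSPA5. CALR was at 899, 813 and 831 CPM in SCC and 790.2, 808 and 784 in RCC (log2 fold change 0.09, 95% interval -0.04 to 0.23, adjusted p 0.414). CANX was at 1655, 1723 and 1746 against 1847, 1853 and 1744 CPM (-0.09, -0.22 to 0.04, adjusted p 0.421). CALR was barely higher in every SCC library, and CANX overlapped.

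None of the 7 disulfide isomerases and oxidases was called, and their median log2 fold change was -0.03. PDIA6, an isomerase that also acts on IRE1, was at 242, 242 and 246 CPM in SCC and 254, 244 and 244 in RCC. PDIA4, of the same family, was at 306, 314 and 316 against 324, 320.4 and 313 CPM. The 95% intervals of -0.15 to 0.11 for PDIA6 and -0.16 to 0.10 for PDIA4 end below the HSPA5 value of 0.48. That value was singled out after it was seen, so this comparison is description and no test. P4HB, the abundant protein disulfide isomerase, was at 658, 563 and 574 against 539, 527 and 542 CPM, with SCC replicate 1 far above the rest. Its log2 fold change of 0.16 (adjusted p 0.250) was 0.09 without that library and 0.01 with the GC offset. PDIA3, which works with CALR and CANX, was at -0.09 (adjusted p 0.512), and reads of its processed copy PDIA3P1 amounted to 4.14% of its own, so their division is uncertain. PDIA5 was at 0.11 (adjusted p 0.522). ERO1A, which reoxidises the isomerases, was at 268, 280.5 and 288 CPM in SCC and 292, 309.7 and 299 in RCC, lower in every SCC library without passing the test. For ERO1A the log2 fold change was -0.11 (adjusted p 0.355), and 0.01 with the GC offset. Its relative ERO1B was at 9.27 to 14.3 against 12.8 to 15.0 CPM (-0.26, 95% interval -0.60 to 0.09, adjusted p 0.375), and its log2 fold change was -0.12 without SCC replicate 1 and -0.46 without SCC replicate 2.

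Apart from HERPUD1, none of the 6 other tested ERAD genes was called. SEL1L and SYVN1 (HRD1) form the ubiquitin ligase complex that HERPUD1 joins. SEL1L was at 84.8, 89.2 and 92.9 CPM in SCC and 97.5, 93.1 and 88.3 in RCC (log2 fold change -0.06, adjusted p 0.632). SYVN1 was at 65.9, 52.1 and 53.9 against 51.2, 48.5 and 50.5 CPM (0.20, adjusted p 0.278), with SCC replicate 1 well above the rest. The derlins DERL1 and DERL2, membrane channels of the same route, had log2 fold changes of 0.06 and -0.00 (adjusted p 0.661 and 0.979). EDEM1 and EDEM2, which trim mannose from proteins bound for degradation, were at -0.11 and 0.11 (adjusted p 0.426 and 0.563). DERL3 had 3, 5 and 3 counts in SCC and 0, 2 and 4 in RCC and was not tested, and 77.0% of its exon bases are shared with SMARCB1 on the opposite strand.

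Neither of the secreted stress proteins passed the test. MANF, a small lumenal protein released under ER stress, was at 83.5, 89.9 and 87.9 CPM in SCC and 104, 98.5 and 96.9 in RCC. Every SCC library was lower, and the log2 fold change was -0.20 (95% interval -0.35 to -0.05, unadjusted p 0.0151, adjusted p 0.162). It was called lower with the GC offset (-0.24, adjusted p 0.0317) and in none of the fits that left out a library. CRELD2, a lumenal protein that is also secreted under ER stress, was at 37.2, 33.4 and 33.3 against 30.6, 30.7 and 33.0 CPM (0.14, adjusted p 0.364).

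None of the 5 sensors and transcription factors was called. All 5 had log2 fold changes above 0 in the fit reported, though CREB3L2 was at -0.02 without SCC replicate 1. Their median was 0.13, and 0.09 to 0.18 over the alternatives. ERN1 encodes IRE1, the kinase and ribonuclease that splices XBP1 mRNA. It was at 21.1, 18.1 and 17.4 CPM in SCC and 15.3, 15.4 and 10.5 in RCC, without overlap (log2 fold change 0.46, standard error 0.148, 95% interval 0.13 to 0.78, adjusted p 0.140). RCC replicate 3 was the lowest, and without it the log2 fold change was 0.29 (adjusted p 0.337). XBP1 was at 114, 100.2 and 100.3 against 90.3, 87.6 and 97.8 CPM (0.19, 95% interval 0.02 to 0.36, adjusted p 0.218). Counts per gene do not separate spliced from unspliced XBP1. EIF2AK3, encoding PERK, was at 28.2, 27.9 and 29.8 against 25.1, 25.9 and 27.4 CPM (0.13, adjusted p 0.403), with the groups close but apart. ATF6 was at 78.3, 77.7 and 84.5 against 76.9, 80.3 and 71.4 CPM and overlapped (0.07, adjusted p 0.607). CREB3L2, an ATF6-like factor of the ER membrane, was at 127 to 143 against 131 to 134 CPM (0.02, adjusted p 0.863).

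The 3 remaining genes serve translocation, export and the ER membrane. WFS1 (wolframin), a membrane protein that restrains ATF6, was at 37.1, 27.5 and 29.4 CPM in SCC and 25.5, 21.3 and 25.2 in RCC. The groups did not overlap, and SCC replicate 1 was the highest (log2 fold change 0.39, 95% interval 0.11 to 0.66, adjusted p 0.138). Without that library it was 0.25, and with the GC offset 0.21. SEC61B, a subunit of the translocation channel, was at -0.12 (adjusted p 0.395), and SEC24D, which picks cargo for COPII vesicles, at -0.01 (0.937).

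Across the 35 genes the gap between SCC replicate 1 and the other SCC libraries followed GC content, with Pearson's r of 0.84 and Spearman's rho of 0.83, a description over genes that share libraries. It was 0.41 on the log2 scale for SDF2L1 (GC 65.5%) and -0.34 for HSPA13 (34.9%). For HSPA5 (46.0%) and HERPUD1 (47.9%) it was -0.03 and -0.02. The correlation of GC content with the log2 fold change of the 35 genes was 0.41 (rho 0.52) with every library and 0.12 (rho 0.26) without SCC replicate 1.

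Per gene length the set spanned a wide range of levels. CALR (309.9 ± 14.6 FPKM in SCC and 292 ± 6.24 in RCC, SD, n = 3), CANX (272 ± 9.29 and 290.2 ± 10.4) and HSPA5 (285 ± 4.84 and 206 ± 7.79) led. In RCC, CALR and CANX overlapped and HSPA5 was below both in every library, at 212, 208 and 197 FPKM. In SCC, HSPA5 was at 279.9, 288 and 289 FPKM, above CANX in every library and below CALR in every library. HSP90B1 followed at 162 ± 19.5 and 172 ± 6.15 FPKM, then P4HB, PDIA4 and PDIA3. Among the sensors ERN1 had the lowest level of the tested genes, at 1.72 ± 0.167 and 1.26 ± 0.258 FPKM. EIF2AK3 was at 5.22 ± 0.210 and 4.79 ± 0.222 FPKM, and ATF6, in the middle of the set, at 10.1 ± 0.516 and 9.63 ± 0.603. FPKM depends on the deposited gene length, which was 21835 bases for DNAJC10. Counting by strand is not stated, so reads of overlapping genes cannot be told apart: PDIA6 shares 25.2% of its exon bases with ATP6V1C2, PDIA3 14.8% with ELL3 and EIF2AK3 14.4% with AC104134.1, all on the opposite strand, and SYVN1 7.24% with FAU. HSPA5 and HERPUD1 share none.

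**Figure D4:**
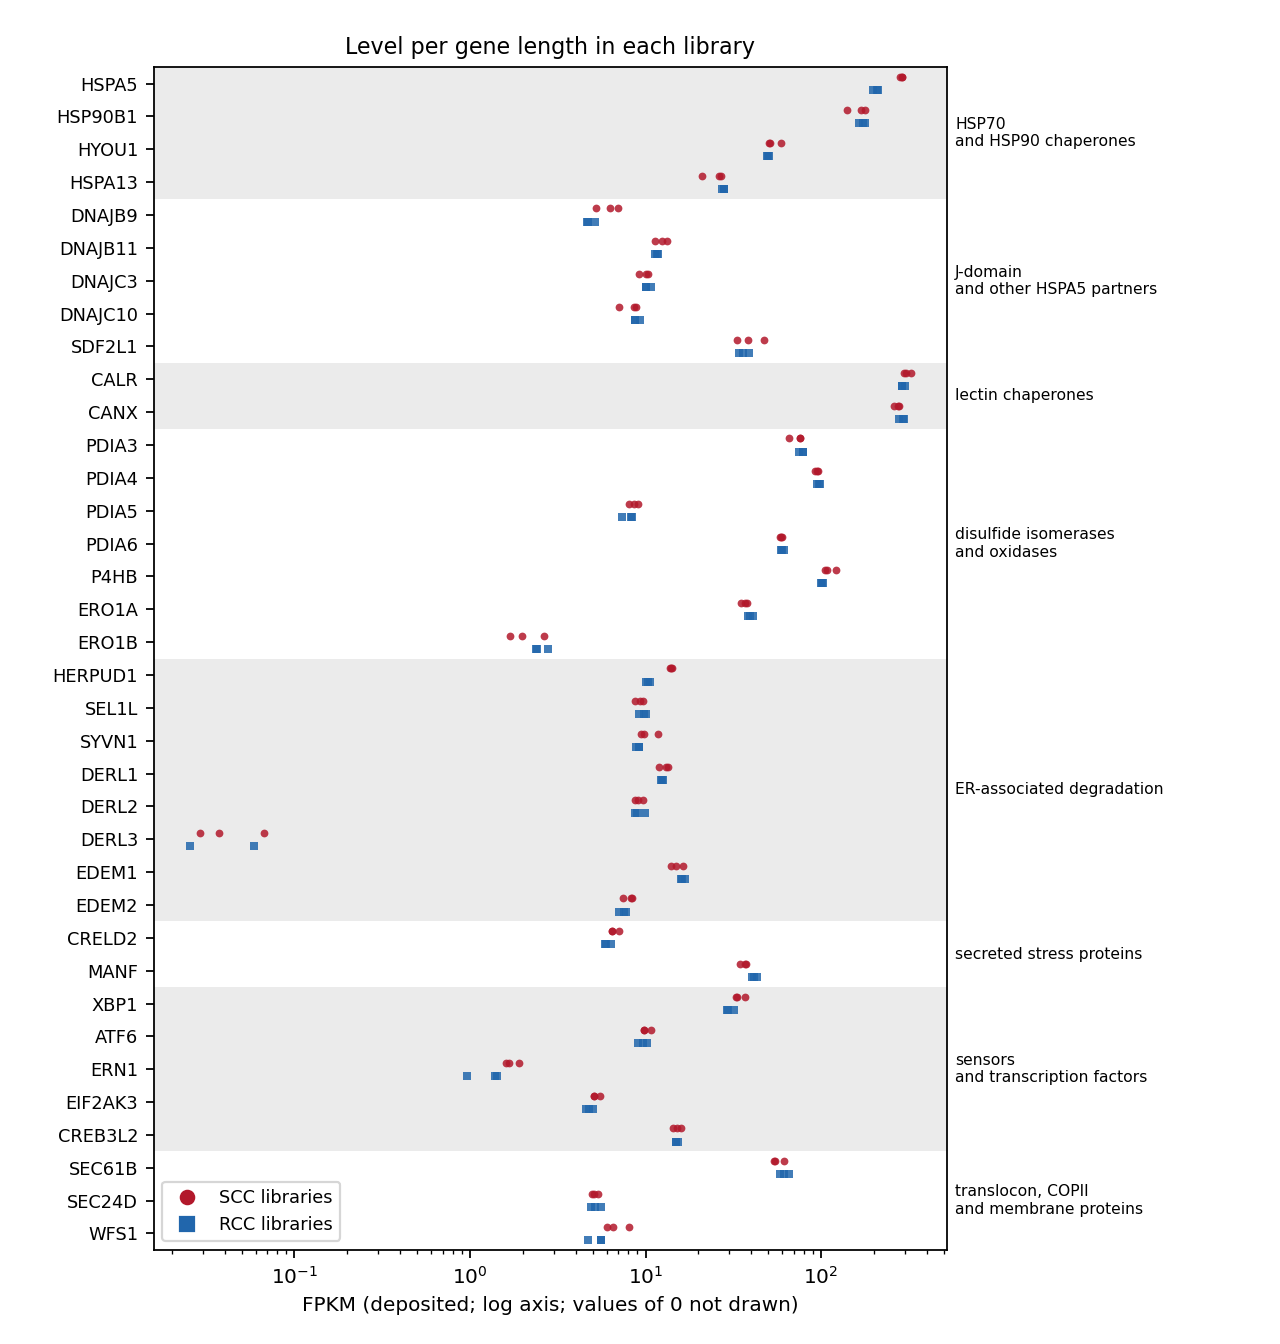
Deposited FPKM of the 36 genes in each library on a log axis, ordered by role, with SCC as circles and RCC as squares. CALR, CANX and HSPA5 lie highest, ERN1 and ERO1B near 1 to 3 FPKM, and DERL3 below 0.1.

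The wider ER machinery was compared through 5 lists holding 130 other genes, 127 of them tested. Of these, 3 were called higher and 0 lower (2.36% and 0%), where the shares over all tested genes were 1.69% and 0.378%. With an unadjusted p under 0.05, 9.45% were higher and 7.09% lower, against 11.4% and 8.27% of all tested genes. The 3 called genes are in the list of other stress transducers and PERK-branch genes, with 18 genes tested and a median of 0.09 (from -0.01 with the GC offset to 0.10 over the alternatives). None was called among 33 other folding and glycan-processing genes (median 0.03), 29 other ERAD genes (0.04), 24 translocon, signal peptidase and signal recognition particle genes (-0.11) or 23 COPII and ER-Golgi receptor genes (-0.07). In the translocon list 20 of the 24 genes had a log2 fold change below 0, and 5 (20.8%) had an unadjusted p under 0.05 in that direction, where 8.27% of all tested genes did. Its median was -0.04 with the GC offset and -0.05 without SCC replicate 1.

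PPP1R15A (GADD34; ENSG00000087074, chromosome 19, 48872392 to 48876057), the phosphatase subunit that reverses the PERK block on translation, showed the greatest change in these lists. It was at 281, 239 and 237 CPM in SCC and 106, 104 and 95.8 in RCC (log2 fold change 1.31, standard error 0.0834, adjusted p 1.1e-05), and was called in all 16 alternatives. ATF4 was at 380.2, 365 and 382 against 311, 315 and 311 CPM, a small difference with little spread (0.27, standard error 0.0593, adjusted p 0.0459). It was not called in 11 of 16 alternatives, among them the GC offset (0.16, 0.113) and the fits that left out SCC replicate 3 (adjusted p 0.161) or any RCC library (0.234, 0.204 and 0.214 for replicates 1 to 3). CREB3L1, an ER-anchored factor of the ATF6 type, was at 34.1, 21.6 and 21.8 against 16.1, 15.9 and 13.4 CPM (0.78, adjusted p 0.0455). It was 0.52 without SCC replicate 1. It was not called in 6 of 16 alternatives, those without RCC replicate 1 (0.158), 2 (0.151) or 3 (0.207) and the 3 limma fits on FPKM (adjusted p 0.137 to 0.403). DDIT3 (CHOP), the stress factor downstream of ATF4, was at 5.64, 6.80 and 6.17 against 3.96, 4.44 and 4.08 CPM and missed the threshold (0.57, adjusted p 0.0873), though it was called without SCC replicate 1 (0.0292). It shares 27.2% of its exon bases with MARS on the opposite strand. These are relative levels in bulk libraries: a rise in every cell and a larger rise in some cells cannot be told apart, nor can fewer expressing cells and less RNA per cell.

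**Figure D5:**
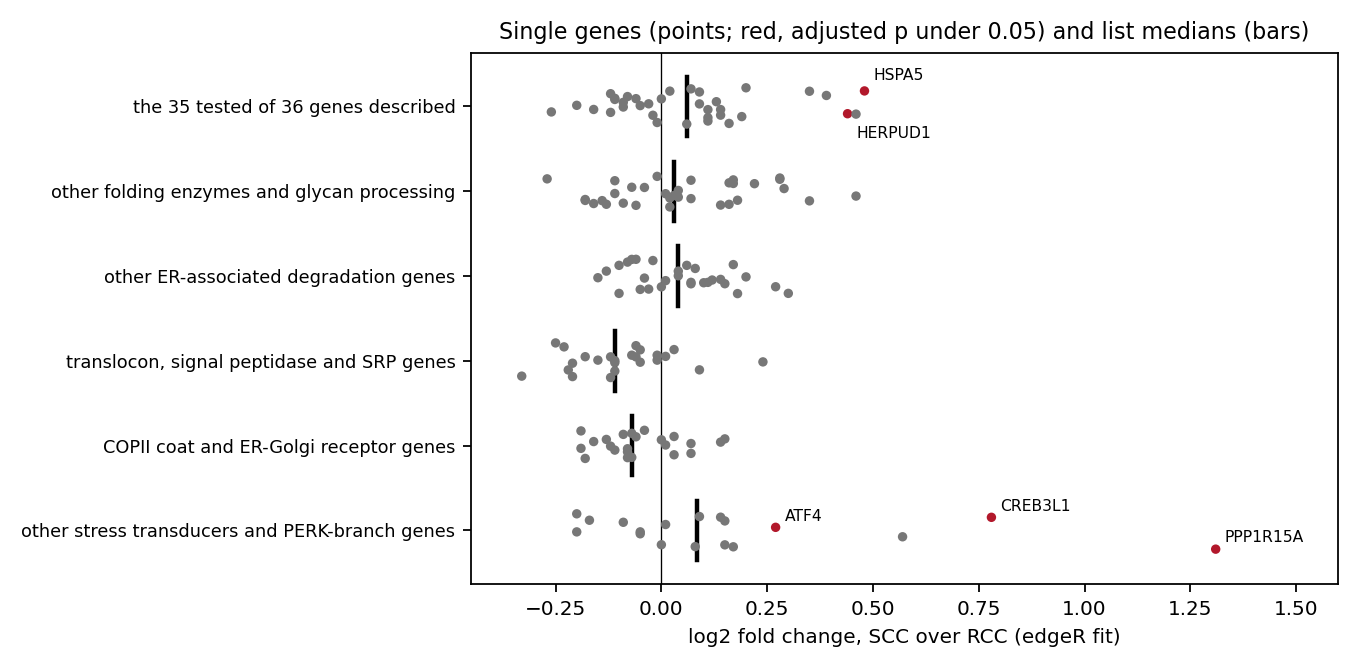
Log2 fold change of SCC over RCC of each tested gene in the group described and in the 5 other ER lists, with bars for list medians and red for genes called at an adjusted p under 0.05. In all, 5 genes are called, and PPP1R15A at 1.31 lies farthest from 0.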

How the data were processed

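For 6 libraries of 2 groups the authors deposited raw counts and FPKM for each gene, together with gene lengths. The submitters' processing notes name HISAT2 2.0.5 and featureCounts 1.5.0-p3. The genome build, strand setting and filters are not given in the sources used here, so genes that overlap others are uncertain. All 58735 rows had the position of GENCODE 29 (GRCh38). Each deposited FPKM equalled the count over gene length and a constant per library of 0.983 to 1.02 times its total.

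Counts were filtered with filterByExpr (minimum count 10), scaled by TMM and tested in edgeR 4.0.16 (R 4.3.3), two-sided, with group alone in the model. CPM uses TMM-scaled totals. Standard errors are the fold change over the square root of F, and 95% intervals use the fitted degrees of freedom. Replicates differed by more than sampling noise. Chi-square per degree of freedom was 28.5 and 21.4 for SCC replicate 1 against 2 and 3. It was 3.28 for SCC replicates 2 and 3, and 3.61 to 4.24 between RCC replicates. The script was tested on simulated data. Each group had 3 libraries. The edgeR p-values set a group difference against the variation between these libraries, estimated with information from other genes.

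Alternatives used DESeq2 1.42.0, RLE scaling, other filters, limma 3.58.1 with trend on log2(FPKM + 1) or log2(FPKM + 0.1) at FPKM of at least 1 in 3 libraries, a replicate block, an offset for GC content of the longest transcript (lowess span 0.3) and each library left out. All 36 genes are named. Of the other lists the called genes, ATF4 and DDIT3 are named, and NAV2 was named after its value was seen. The genes and lists were chosen with earlier results of these data known, so no list test was made. MARCHF6 was matched by gene ID.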

Additional observations from a re-analysis of the deposited data

How the results depend on the processing

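Of the 35 genes, 27 were called neither in the fit reported nor in any of 16 alternatives, and 6 others were called in at least 1. Against 2 higher and 0 lower, 4 were higher with every gene of at least 1 count tested (ERN1 and WFS1 added) and 1 with limma on log2(FPKM + 1) without a filter. In both of these fits all 36 genes were tested. With the GC offset 4 were higher and 1 lower (DNAJB9, DNAJB11 and MANF added), and with block and GC offset together 6 and 1 (also XBP1 and ERN1). Leaving out a library gave 1 to 3 higher, and a median of 0.01 to 0.05 against 0.06. Over all genes, against 268 higher and 60 lower, DESeq2 gave 480 and 170, every gene with at least 1 count 995 and 315, limma 130 and 36 on log2(FPKM + 1), 117 and 34 on log2(FPKM + 0.1) and 48 and 1 without a filter, the GC offset 521 and 246, and fits without 1 library 99 to 642 and 8 to 343. Among the other ER genes the fit reported gave 3 higher and 0 lower of 127 tested. DESeq2 gave 6 higher, the test of every gene 8 of 130, and each limma fit 1. The GC offset gave 5 higher and 2 lower, and fits without 1 library 1 to 10 higher and 0 to 1 lower. The cause was not tested.

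Replicate numbers are not stated to pair libraries, so they were not taken to pair them. Deviations of libraries that share a number correlated at -0.0179, 0.0424 and -0.0989. These values cannot decide on pairing, because SCC replicate 1 stood apart from the other SCC libraries. With the replicate block 2 of the 35 genes were higher, HSPA5 at 0.48 (adjusted p 0.00206) and HERPUD1 at 0.44 (0.0127), and over all genes 350 were higher and 106 lower. The block with the GC offset gave 636 and 451 over all genes, and 6 and 4 among the other ER genes.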
